A study of Mus musculus with 29 samples.

Results

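The expression of 9 genes of blood vessels and their growth factors was followed through a mouse model of gastric cancer spread to the peritoneum: Vegfa, Pgf, Kdr, Flt1, Angpt2, Tek, Pecam1, Cdh5 and Esm1. They were taken by symbol from the count table, so that the set holds 9 of its 24421 genes, and all 9 passed the filter on low counts in every comparison. The 29 bulk RNA libraries, 1 per mouse, came from female C57BL/6J mice that were 5 to 6 weeks old at the start and received YTN16 gastric cancer cells in the abdominal cavity. On day 21 the groups were untreated mice (n = 5) and mice given dual ICI, the combination of anti-PD1 at 10 mg/kg and anti-CTLA4 at 5 mg/kg (n = 5). On day 35 they were untreated mice (n = 5), mice given anti-PD1 alone (n = 5) or anti-CTLA4 alone (n = 4), and mice given dual ICI, of which 2 were uncured and 3 were cured. Untreated mice received PBS. The labels hold the treatment, the day and a number but not the outcome. Uncured and cured mice were therefore told apart by the mouse numbers given in the study's text, matched to the numbers in the sample titles. The text also describes a cured anti-PD1 mouse without its number, and that group was left whole. Libraries held 25989217 to 31219650 counts.

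The labels call every sample tumor tissue, whereas the study describes peritoneum stripped with or without nodules. The summed share of 18 gastric epithelium genes was 0.00184% to 0.00838% of counts in the 3 cured libraries and 0.480% and 0.587% in the 2 uncured ones, and 4 to 6 of the 18 genes were at 0 in each cured library. The summed share of 18 skeletal muscle genes, led by the myosin Myh4, was 21.8% to 23.5% in the cured libraries and 5.53% and 7.84% in the uncured ones. Another 2 libraries stood apart from their groups on day 35. Anti-PD1 replicate 5 held 0.00525% gastric epithelium and 21.6% muscle counts, and untreated replicate 2 held 0.103% and 20.8%, whereas the other untreated libraries held 0.387% to 0.425% and 6.13% to 13.8%. The gastric epithelium share of anti-PD1 replicate 5 lay within the range of the cured libraries, and that of untreated replicate 2 lay above it. Whether anti-PD1 replicate 5 was the cured mouse of the study's text was not tested. All 21 pan-endothelial markers were detected in every library. In bulk tissue, fewer endothelial cells and less RNA per endothelial cell cannot be told apart, and neither can a change in vessels from a change in the amount of muscle or tumor in the sample.

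As background, VEGF-A is the main growth signal for blood vessels, and placental growth factor, encoded by Pgf, is its relative. VEGF-A signals through the receptor encoded by Kdr, while Flt1 binds VEGF-A and placental growth factor tightly and can act as a decoy. Tek encodes Tie2, the endothelial receptor for angiopoietins. Angiopoietin-1 keeps vessels quiet, and angiopoietin-2, encoded by Angpt2 and released by activated endothelium, can oppose it. Pecam1 and Cdh5 encode adhesion molecules of the junctions between endothelial cells, and Esm1 encodes a secreted proteoglycan that marks tip cells at the front of growing vessels.

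Upstream sequences are shown for 1 ligand and 2 receptors whose RNA was lower in uncured than in cured mice with TMM scaling of the libraries. By library totals alone, the difference of the ligand Vegfa did not pass the test. RefSeq promoter windows were matched for 6 of the 9 genes (Vegfa, Pgf, Kdr, Flt1, Tek and Esm1). Each sequence is the 250 bases before the RefSeq start on GRCm38.p6, 5′ to 3′ on the strand of the gene. Vegfa lies on the minus strand (window chr17:46032378-46032627), Flt1 on the minus strand (window chr5:147726012-147726261) and Tek on the plus strand (window chr4:94739039-94739288). Capitals mark AGGAAG, a core motif of ETS factors.

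Vegfa: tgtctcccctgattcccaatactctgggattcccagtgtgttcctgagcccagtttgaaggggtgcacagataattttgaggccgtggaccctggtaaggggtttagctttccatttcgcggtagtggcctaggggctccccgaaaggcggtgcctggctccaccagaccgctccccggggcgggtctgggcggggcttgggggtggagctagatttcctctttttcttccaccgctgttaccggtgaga

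Flt1: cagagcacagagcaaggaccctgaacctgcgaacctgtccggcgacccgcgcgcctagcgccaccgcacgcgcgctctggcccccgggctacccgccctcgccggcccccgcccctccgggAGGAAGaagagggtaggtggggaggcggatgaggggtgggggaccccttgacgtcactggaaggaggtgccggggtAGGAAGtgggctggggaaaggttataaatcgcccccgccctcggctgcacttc

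Tek: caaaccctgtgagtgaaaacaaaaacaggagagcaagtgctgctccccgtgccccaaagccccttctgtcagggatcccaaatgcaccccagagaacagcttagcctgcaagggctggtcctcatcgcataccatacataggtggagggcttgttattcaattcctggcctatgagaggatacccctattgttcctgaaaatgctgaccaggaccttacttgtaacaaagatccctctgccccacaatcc

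AGGAAG was searched on both strands and was found at 2 places in the Flt1 window and in none of the other 5 windows, and 29.2% of 27025 promoter windows held it. ACGTG, the core of the hypoxia response element, was likewise searched on both strands and was in none of the 6 windows, against 16.6% of all windows. The GC content was 59.2% for Vegfa, 70.4% for Flt1 and 51.2% for Tek, beside a median of 52.0% over all windows. On GRCm38 the genes lie at chr17:46016993-46032369 (Vegfa), chr12:85166635-85177790 (Pgf), chr5:75932827-75978458 (Kdr), chr5:147561604-147726011 (Flt1), chr8:18690263-18741562 (Angpt2), chr4:94739289-94874976 (Tek), chr11:106654217-106750628 (Pecam1), chr8:104101625-104144511 (Cdh5) and chr13:113209659-113218098 (Esm1), and all are annotated by GENCODE as protein coding. No exon of the 9 genes overlapped an exon of another gene there.

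The level of each gene was expressed in CPM, the counts of a gene per library size, after TMM scaling over all 29 libraries. Divided by exon length, the mean level over all libraries was highest for Vegfa at 44.7 CPM per kb, followed by Cdh5 at 24.8, Pecam1 at 18.6, Kdr at 8.24, Tek at 7.97, Flt1 at 3.51 and Angpt2 at 2.10 CPM per kb. The order of Kdr and Tek differed between groups, with Tek above Kdr in cured mice (12.6 against 9.78 CPM per kb) and below it in untreated mice of day 35 (5.57 against 7.35 CPM per kb). Pgf at 0.627 and Esm1 at 0.568 CPM per kb were the lowest, and Esm1 rested on 4 to 91 counts per library. Tek varied 5.97-fold between its lowest and highest library, and Pecam1 varied 1.72-fold.

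With TMM scaling, cured mice had the highest group mean of Vegfa, Flt1, Tek, Pecam1 and Cdh5. This order rested on the scaling. By library totals alone, the mean of untreated mice on day 21 was above that of cured mice for all 5 genes, among them Vegfa (234 against 195 CPM) and Tek (51.1 against 42.5 CPM), and Pecam1 was lowest in cured mice (92.8 CPM). For Vegfa with TMM the order ran from cured (272 ± 6.78 CPM, SD, n = 3) through untreated on day 21 (235 ± 16.5, n = 5) to uncured (138 ± 20.9, n = 2). Only the step from cured to untreated day 21 was larger than the larger SD of the neighbours, and this also held for Flt1 and Cdh5. For Angpt2 the order was different, with uncured mice highest (10.3 ± 0.146 CPM, n = 2) and dual ICI mice of day 21 lowest (6.66 ± 0.661, n = 5), and no neighbouring groups differed beyond their spread.

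**Figure D1:**
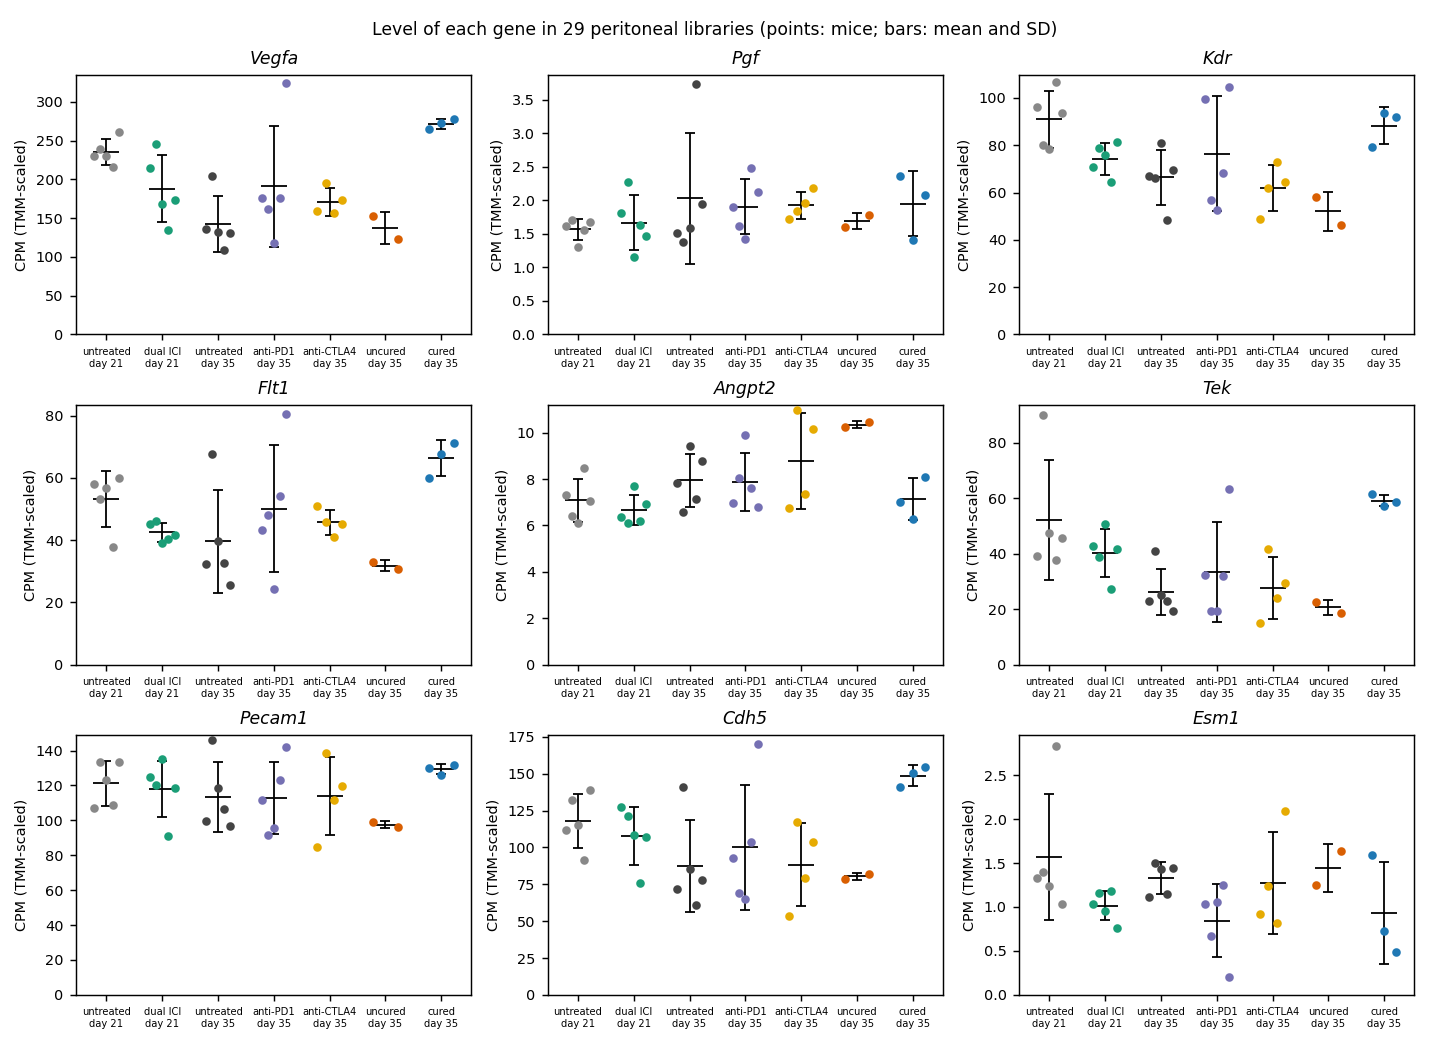
Level of each of the 9 genes (CPM on TMM-scaled library sizes, linear axes from 0) in 7 groups, with 1 point per mouse and bars for the mean and SD. The 3 cured libraries lie at 265 to 278 CPM for Vegfa, above every untreated library of day 35, while Angpt2 is highest in the 2 uncured libraries among the group means.

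On day 21, none of the 9 genes was called between dual ICI and untreated mice (adjusted p under 0.05 by edgeR's quasi-likelihood test over all genes), where 0.574% of 15503 genes were called. Of the 9 genes, 8 had a negative log2 fold change. Vegfa lay at 215, 246, 169, 135 and 174 CPM in dual ICI mice and at 230, 239, 231, 216 and 261 CPM in untreated mice. The groups overlapped with TMM, since dual ICI replicate 2 lay within the untreated range, but not by library totals (162 to 214 CPM against 221 to 247 CPM, as for 0.968% of genes in this direction), and the log2 fold change was -0.33 ± 0.15 (SE, adjusted p = 0.488). Kdr (-0.29 ± 0.11, adjusted p = 0.364) and Flt1 (-0.32 ± 0.13, adjusted p = 0.398) were also below 0 without passing the test.

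From day 21 to day 35 the untreated mice had lower Vegfa and Tek, while 7 of the 9 genes had a negative log2 fold change. Of the 9 genes, 2 were called, both lower, beside 10.8% of 15604 genes called in both directions and 4.58% called lower. Vegfa was at 137, 205, 132, 109 and 130 CPM on day 35, all below the lowest day 21 value of 216, with a log2 fold change of -0.72 ± 0.17 (adjusted p = 0.0263). Groups without overlap in this direction made up 5.2% of genes. Tek was at 23.0, 40.9, 25.0, 23.1 and 19.3 CPM on day 35 and at 39.3, 90.0, 47.7, 37.7 and 45.8 CPM on day 21. Its groups overlapped with TMM through untreated replicate 2 of day 35 but not by library totals (21.8 to 32.3 CPM against 39.2 to 84.3 CPM, as for 4.42% of genes), and its log2 fold change was -0.99 ± 0.28 (adjusted p = 0.0438). Kdr had a log2 fold change of -0.45 ± 0.14 (adjusted p = 0.062), and Pecam1 one of -0.095 ± 0.15 (adjusted p = 0.699). The library identifiers of day 21 and day 35 fall in separate number ranges, whose meaning the labels do not give, and any batch by day cannot be told apart from time. Both calls depended on single libraries: no gene of the 9 was called without untreated replicate 1, 3 or 5 of day 35 or untreated replicate 1, 2, 3 or 5 of day 21, 1 was called without untreated replicate 4 of day 35, and 5 were called without untreated replicate 2 of day 35, the library low in gastric epithelium, where the share of all genes called also rose, to 31.2%.

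On day 35, neither single antibody gave a call among the 9 genes or among all genes. By edgeR, 0% of 15640 genes were called for anti-PD1 and 0% of 15781 for anti-CTLA4, with 205 and 128 genes at an unadjusted p under 0.05, and DESeq2 also called 0 genes in each. Vegfa was at 176, 162, 118, 176 and 324 CPM in anti-PD1 mice, and the last of these values, replicate 5, stood above the other 4. Tek was 63.5 CPM in that library and 19.4 to 32.3 CPM in the other 4. The log2 fold change of anti-PD1 against untreated was 0.42 ± 0.28 for Vegfa and 0.34 ± 0.34 for Tek (adjusted p = 1 for both). Without replicate 5 they were 0.13 and -0.045. For anti-CTLA4, Vegfa lay at 159, 196, 156 and 173 CPM with a log2 fold change of 0.24 ± 0.20 (adjusted p = 1), and Kdr had one of -0.12 ± 0.17. The Vegfa groups overlapped with TMM, whereas by library totals all 4 anti-CTLA4 libraries (175 to 195 CPM) lay above all 5 untreated ones (103 to 164 CPM), as for 0.12% of genes in this direction, with an adjusted p of 1 there too. All comparisons with untreated mice on day 35 used the same 5 untreated libraries.

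Between uncured and untreated mice on day 35, edgeR called 0% of 16156 genes (787 at an unadjusted p under 0.05) and DESeq2 called 18 genes. Angpt2 was at 10.2 and 10.4 CPM in the uncured mice and at 7.81, 6.59, 9.41, 7.16 and 8.78 CPM in the untreated mice. Its groups did not overlap, as for 9.22% of genes in this direction, and its log2 fold change was 0.37 ± 0.21 (adjusted p = 0.734). Tek was 22.5 and 18.7 CPM in the uncured mice (log2 fold change -0.36 ± 0.30, adjusted p = 0.742), within or just below the untreated range. Without untreated replicate 2 this log2 fold change was -0.13. With all 5 dual ICI mice as 1 group, as the labels have them, edgeR called 0% of 15588 genes (1071 at an unadjusted p under 0.05) and DESeq2 called 56. Vegfa then had a log2 fold change of 0.62 ± 0.29 (adjusted p = 0.634) and Tek one of 0.74 ± 0.38 (adjusted p = 0.634). For the interaction, which sets the change under dual ICI in the uncured mice of day 35 against that on day 21, edgeR called 0% of 16542 genes (1050 at an unadjusted p under 0.05) and DESeq2 called 1. Among the 9 genes the interaction ranged from -0.35 ± 0.45 for Pgf to 0.74 ± 0.43 for Esm1. Both limits moved with single libraries. Pgf was at -0.017 without untreated replicate 4 of day 35, and Esm1 at 0.41 without untreated replicate 4 of day 21.

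With TMM scaling, cured peritoneum had higher Vegfa, Tek and Cdh5 than untreated peritoneum on day 35, whereas with library totals Tek alone of the 9 genes was called. With TMM, 3 of the 9 genes were called higher and none lower, beside 44.7% of 15816 genes called in both directions, 18% higher and 26.7% lower. Vegfa was at 265, 272 and 278 CPM in the cured mice, all above the highest untreated value of 205 CPM, and was 1.92-fold higher (log2 fold change 0.94 ± 0.22, adjusted p = 0.008). Tek was at 61.5, 57.3 and 58.8 CPM, all above the untreated maximum of 40.9 CPM, and was 2.28-fold higher (1.19 ± 0.23 on the log2 scale, adjusted p = 0.00353). These 2 genes had no overlap between groups, as 20.3% of genes did in this direction. Cdh5 was at 141, 151 and 155 CPM against 71.7, 141, 85.3, 60.8 and 77.9 CPM, and its lowest cured value fell just under untreated replicate 2. Its log2 fold change was 0.78 ± 0.26 (adjusted p = 0.0369), and the call was lost without any 1 of the cured replicates 2, 3 and 4 or the untreated replicates 1, 3 and 5 (highest adjusted p = 0.105). Flt1 (0.76 ± 0.29, adjusted p = 0.0575) and Kdr (0.43 ± 0.17, adjusted p = 0.069) did not pass the test, and Angpt2 (-0.14 ± 0.19, adjusted p = 0.565) and Pgf (-0.034 ± 0.38, adjusted p = 0.947) lay near 0. Without untreated replicate 2, the library with the high muscle share, 5 of the 9 genes were called, beside 59.5% of all genes.

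Within the dual ICI mice of day 35, the uncured ones had lower Tek, Flt1, Vegfa, Cdh5, Kdr and Pecam1 than the cured ones, and higher Angpt2, with TMM scaling. With library totals Tek and Flt1 were called lower and Angpt2 higher, while Vegfa, Cdh5 and Kdr were not called and Pecam1 turned to higher. With TMM this made 6 of 9 lower and 1 of 9 higher, beside 70% of 15796 genes called in both directions, 33.1% lower and 36.9% higher. Tek, the angiopoietin receptor, was 22.5 and 18.7 CPM in uncured mice, 0.342 times its level in cured mice (log2 fold change -1.55 ± 0.11, adjusted p = 4.13e-06). Flt1 was 33.0 and 30.7 CPM against 60.1, 67.7 and 71.3 CPM (-1.09 ± 0.11, adjusted p = 3.58e-05). Vegfa was 152 and 123 CPM in uncured mice, below all 3 cured values (-1.01 ± 0.12, adjusted p = 7.22e-05). These 3 differences were each larger than the spread within either group. Kdr was 58.0 and 46.2 CPM against 79.3, 93.8 and 91.8 CPM (-0.79 ± 0.13, adjusted p = 0.000616). Among the junction genes, Cdh5 was 78.7 and 82.0 CPM in uncured mice (-0.92 ± 0.10, adjusted p = 4.46e-05), and Pecam1 was 99.0 and 96.0 CPM against 130, 126 and 132 CPM (-0.43 ± 0.09, adjusted p = 0.00193). Angpt2 was the 1 gene called in the other direction, at 10.2 and 10.4 CPM against 7.01, 6.28 and 8.09 CPM (0.51 ± 0.18, adjusted p = 0.0287), although the call was lost without either uncured library or without cured replicate 2 or 3 (highest adjusted p = 0.105). With TMM the 7 called genes had no overlap between the groups, as 37.4% of all genes in the lower direction and 43.7% in the higher direction. By library totals Vegfa, Flt1, Tek and Angpt2 stayed apart in the same direction, Kdr and Cdh5 overlapped, and Pecam1 lay apart in the higher direction. Pgf (-0.23 ± 0.31, adjusted p = 0.534) and Esm1 (0.61 ± 0.48, adjusted p = 0.275) did not pass the test. With 1 library left out, Esm1 ran from 0.28 (cured replicate 4) to 1.20 (cured replicate 2). Its lowest adjusted p was then 0.0368, under the threshold. With TMM, Pgf in uncured mice (mean 1.69 CPM) lay within the range of the cured mice (1.41 to 2.35 CPM). By library totals Pgf was 1.92 and 2.17 CPM in uncured and 1.03 to 1.64 CPM in cured mice, without overlap. Esm1 lay at 1.25 and 1.64 CPM in uncured mice and at 1.59, 0.731 and 0.484 CPM in cured replicates 2, 3 and 4. Its groups overlapped through cured replicate 2 alone.

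**Figure D2:**
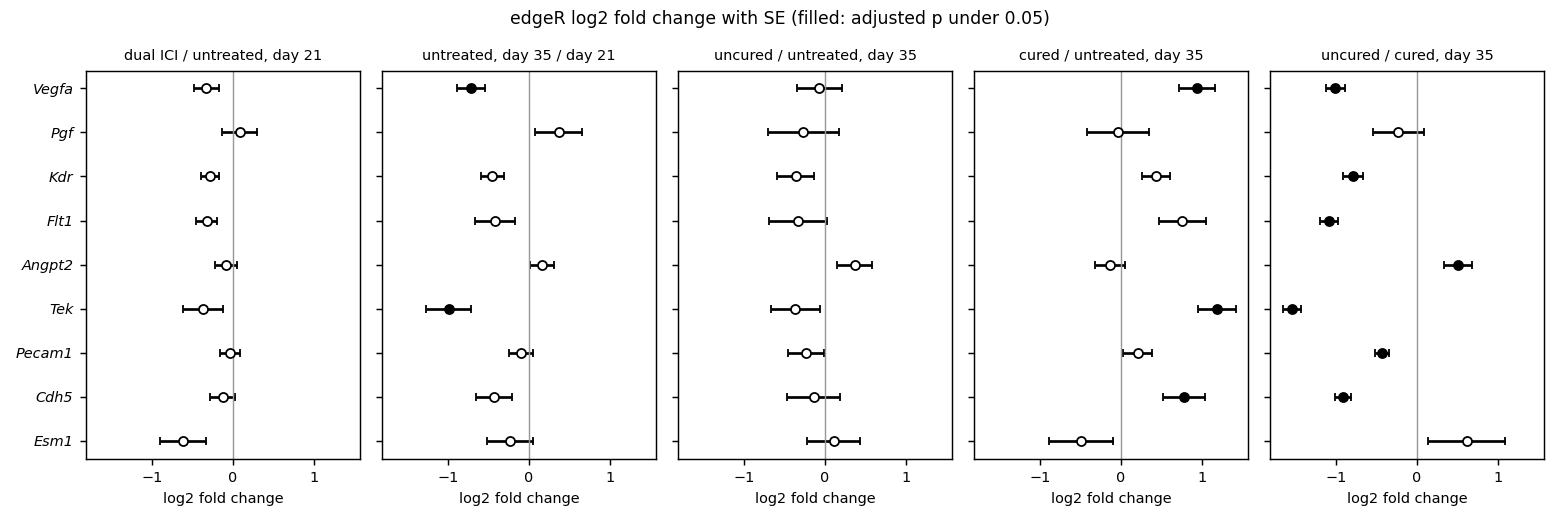
Log2 fold changes of the 9 genes with their SE from edgeR in 5 comparisons, where filled points have an adjusted p under 0.05. No point is filled for dual ICI on day 21 or for uncured against untreated mice, whereas 7 of 9 are filled for uncured against cured mice, all below 0 except Angpt2.

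How the libraries were scaled decided several of these directions. The TMM factors were 0.698 to 0.730 in the cured libraries and 1.20 and 1.22 in the uncured ones. Scaling by library totals alone moved the median log2 fold change of all genes from -0.055 to -0.64 for cured against untreated mice, and from 0.054 to 0.84 for uncured against cured mice. The calls for cured against untreated mice then became 1187 higher and 7386 lower, where TMM gave 2848 and 4219, and for uncured against cured mice 10127 higher and 2314 lower, where TMM gave 5831 and 5232. With library totals, Tek was higher in cured than in untreated mice (log2 fold change 0.66, adjusted p = 0.0115) and was the 1 gene called. Vegfa was then at 0.40 (adjusted p = 0.0978), with its groups still apart, as for 8.69% of genes in this direction, and Kdr (-0.17) and Pecam1 (-0.35, adjusted p = 0.0973) turned below 0. Pecam1 then lay apart in the other direction, at 90.6 to 95.5 CPM in cured and 100.3 to 140.2 CPM in untreated mice, as for 42.5% of genes. For uncured against cured mice, Tek (-0.77, adjusted p = 0.000192) and Flt1 (-0.31, adjusted p = 0.0362) were called lower and Angpt2 (1.29, adjusted p = 0.000139) higher under both scalings, and Esm1 passed the test with library totals (1.40, adjusted p = 0.0217). Pecam1 reversed, from lower with TMM to higher with library totals (0.35, adjusted p = 0.00591), and the calls of Vegfa (-0.23, adjusted p = 0.1), Kdr (-0.0096, adjusted p = 0.949) and Cdh5 (-0.13, adjusted p = 0.25) were lost. A change of scaling moves all genes of a comparison by about 1 constant, so values relative to the median gene are fixed to be nearly the same under either: for uncured against cured mice they were -1.60 for Tek, -0.49 for Pecam1 and 0.46 for Angpt2 on the log2 scale.

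**Figure D3:**
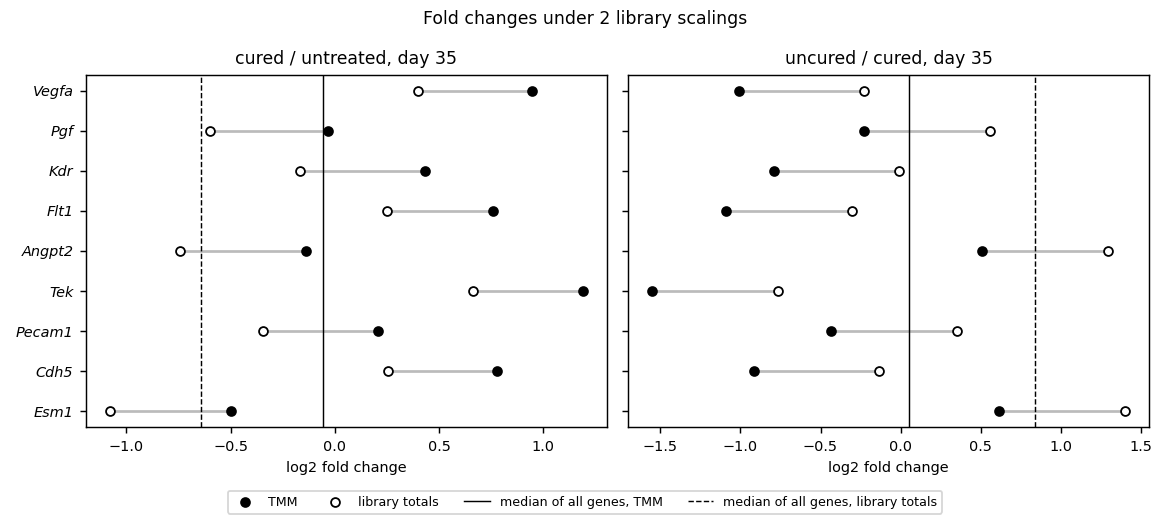
Log2 fold change of each gene with TMM scaling (filled) and with library totals alone (open), for cured against untreated mice on the left and uncured against cured mice on the right, with vertical lines at the median of all genes under each scaling. Genes and median shift by about the same amount, as a change of scaling must give, and Pecam1 lies on opposite sides of 0 under the 2 scalings.

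Muscle content was set beside the levels of Vegfa, Tek and Angpt2 only. The highest Tek of all libraries, 90.0 CPM in untreated replicate 2 of day 21, came from a group with muscle shares of 7.94% to 16.3%. Where in that range this library lay is not given here, and its TMM factor (0.937) was the lowest of its group. The 5 libraries with the largest muscle share were the 3 cured ones, anti-PD1 replicate 5 (Vegfa 324 CPM, Tek 63.5 CPM) and untreated replicate 2 of day 35 (Vegfa 205 CPM, Tek 40.9 CPM). These are TMM values, and the 5 libraries have the lowest TMM factors of day 35. By library totals, Vegfa was 162 CPM in untreated replicate 2, below untreated replicate 1 (164 CPM) and all 4 anti-CTLA4 libraries (175 to 195 CPM), 224 CPM in anti-PD1 replicate 5 and 185 to 202 CPM in the cured libraries. Tek by library totals was 32.3 CPM in untreated replicate 2, 43.9 CPM in anti-PD1 replicate 5 and 41.9 to 42.9 CPM in the cured libraries, beside 40.0 CPM in anti-CTLA4 replicate 2, whose muscle share was 15.4%. With TMM, Angpt2 was 6.81 CPM in anti-PD1 replicate 5 and 6.59 CPM in untreated replicate 2 of day 35, the lowest value of each group. The summed level of the 21 pan-endothelial markers was 852 to 992 CPM in cured mice and 611 and 611 CPM in uncured mice with TMM scaling, but as a share of library counts it was 0.0622% to 0.0692% and 0.0732% to 0.0748%. The most abundant of these markers was Cd34, at 188 to 230 CPM in cured mice. The part of muscle and tumor content in the differences was not tested.

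**Figure D4:**
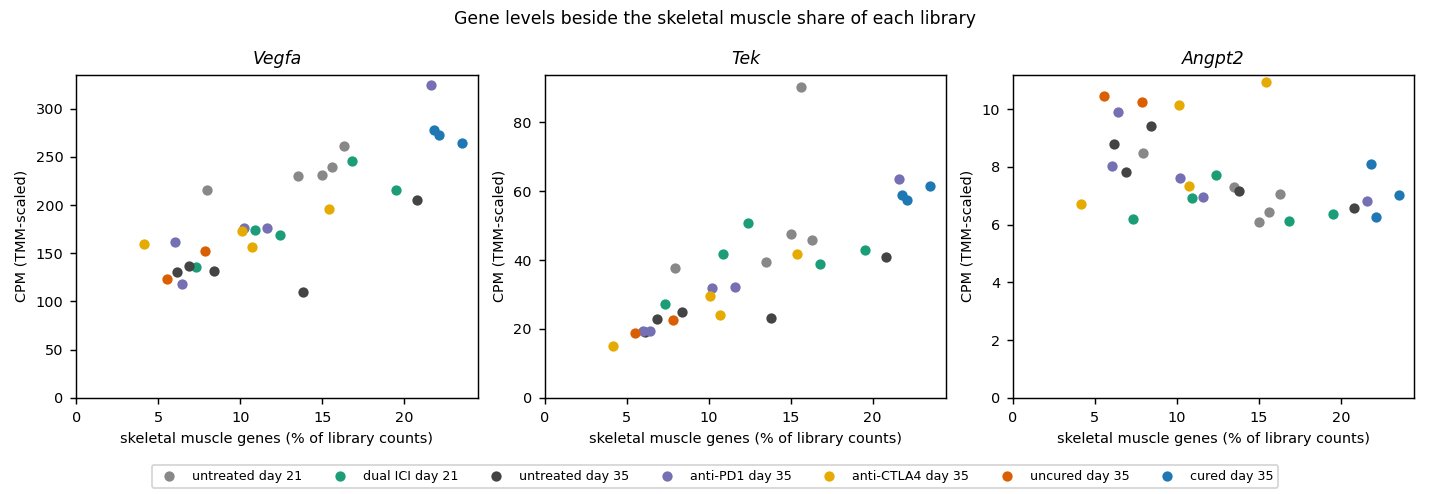
Levels of Vegfa, Tek and Angpt2 (CPM on TMM-scaled library sizes) against the share of library counts in 18 skeletal muscle genes (%), with 1 point per mouse colored by group. The 3 cured libraries and anti-PD1 replicate 5 sit together at the right, with muscle shares of 21.6% to 23.5% and high Vegfa and Tek, whereas Angpt2 is not raised there.

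Ratios of 2 genes within a library do not depend on its scaling, except through the prior count of 2. That prior count matters for the low counts of Pgf and Esm1. The log2 ratio of Angpt2 to Tek was -2.80 ± 0.634 (SD, n = 5) in untreated mice on day 21 and -1.68 ± 0.567 (n = 5) on day 35. It was -0.99 ± 0.208 in uncured mice (n = 2) and -3.05 ± 0.173 in cured mice (n = 3). Cured mice lay entirely below the untreated mice of day 35, by -1.37 (two-sided p = 0.0357 from an exact permutation test, with no smaller value possible for 3 against 5 mice, and an adjusted p of 0.286 over 32 tests). The difference between uncured and cured mice was 2.06, without overlap, but 2 against 3 cannot give an exact permutation p below 0.2. From day 21 to day 35 in untreated mice the difference was 1.12 (exact permutation p = 0.0238, adjusted p = 0.286), with overlap through untreated replicate 2 of day 35. The log2 ratio of Pgf to Vegfa was -7.17 ± 0.139 in untreated mice on day 21, and it was higher by 0.41 with dual ICI on day 21 (exact permutation p = 0.0317, adjusted p = 0.286) and by 1.02 in untreated mice on day 35 (exact permutation p = 0.0317, adjusted p = 0.286). The ratios of Flt1 to Kdr and of Esm1 to Cdh5 had exact permutation p from 0.0714 to 0.96 over their comparisons. None of the 32 tests passed after adjustment.

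**Figure D5:**
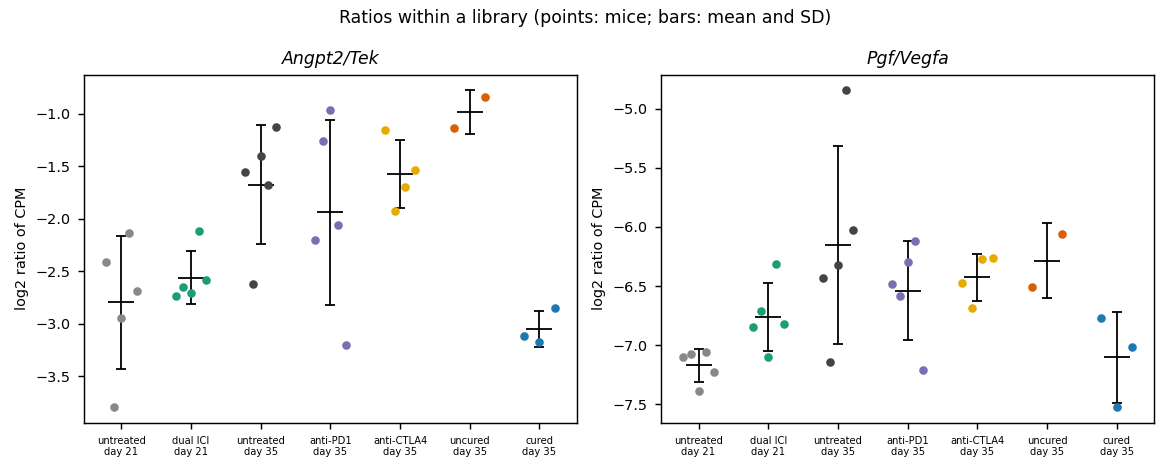
Log2 ratio of Angpt2 to Tek and of Pgf to Vegfa within each library, with 1 point per mouse and bars for the mean and SD. The Angpt2 to Tek ratio is lowest in the cured mice (mean -3.05) and highest in the 2 uncured mice (mean -0.99).

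Other genes of the same pathways were described by lists chosen with earlier results of these data known. The counts between uncured and cured mice stand beside 36.9% of all genes called higher and 33.1% called lower with TMM, and 64.1% and 14.6% with library totals. Among the other VEGF ligands and receptors, 3 of 6 tested genes were higher and 1 lower in uncured than in cured mice. Vegfb, a ligand of Flt1, was lower (log2 fold change -2.21 ± 0.12, adjusted p = 1.07e-06), and Vegfc, the lymphatic growth factor, was higher (1.11 ± 0.21, adjusted p = 0.0014), as were the coreceptors Nrp2 (1.09 ± 0.15) and Nrp1 (0.36 ± 0.09). These 4 directions were called under both scalings. Among the 4 other angiopoietin and Tie genes, the stabilizing ligand Angpt1 was lower (-1.26 ± 0.13, adjusted p = 3.48e-05) and Angpt4 higher (1.58 ± 0.30, adjusted p = 0.0014), again under both scalings, whereas Tie1 (-0.59) and Ptprb (-0.77) were called lower with TMM and turned to 0.20 and 0.014 with library totals, where neither was called. Angpt1 was likewise 1.43 ± 0.20 higher on the log2 scale in cured than in untreated mice (adjusted p = 0.000547) and was at -0.70 ± 0.20 in untreated mice on day 35 against day 21 (adjusted p = 0.0452 with TMM and 0.0843 with library totals).

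Of the 21 pan-endothelial markers, 16 were lower and 1 higher in uncured than in cured mice with TMM, and 2 were lower and 6 higher with library totals. The median log2 fold change of these markers was -0.74 with TMM, where that of all genes was 0.054, and 0.040 with library totals, where that of all genes was 0.84. The scaling moves all genes alike, so the gap to the median of all genes is fixed to be nearly the same under both. Whether the list differed from other genes was not tested. Cd34, a surface marker shared by endothelium and progenitors, was lower under both (-1.30 with TMM and -0.51 with library totals), and Ecscr was higher under both (1.35 and 2.14). Of 10 mural cell genes, 7 were lower with TMM, and 4 were lower and 3 higher with library totals, led by Abcc9 (-2.21 ± 0.18) and Rgs5 (-1.54 ± 0.14), both genes of pericytes, and Abcc9 is also expressed in muscle. Of 13 tip cell and sprouting genes, 6 were higher and 3 lower with TMM and 11 higher with library totals, with Kcne3 (4.23 ± 0.34), the netrin receptor Unc5b (1.99 ± 0.15) and Cxcr4 (1.98 ± 0.20) higher, and with the Notch ligand Dll4 at -1.15 ± 0.15 (adjusted p = 0.000178 with TMM and 0.0555 with library totals). Mean Kcne3 was 20.3 CPM in uncured and 1.07 CPM in cured mice. The part of epithelium and leukocytes in Kcne3, Unc5b and Cxcr4 was not tested. In the list of Notch genes of vessels, 4 of 8 were higher and 3 lower with TMM and 5 higher and 1 lower with library totals, led by Ephb4 (3.05 ± 0.10), a receptor of veins that epithelium also expresses, and its ligand Efnb2 (1.63 ± 0.12). Among 5 tested lymphatic genes, 1 was higher and 2 lower with TMM and 2 were higher with library totals. Among 9 angiogenesis inhibitors, 5 were higher and 2 lower with TMM and 6 higher and none lower with library totals, led by the thrombospondin Thbs1 (2.94 ± 0.34), which fibroblasts and platelets also make. Of 15 hypoxia genes, 5 were higher and 8 lower with TMM and 6 higher and 6 lower with library totals, with the carbonic anhydrase Car9 higher (3.68 ± 0.21) and the glycolytic genes Pfkfb3 (-2.35 ± 0.14) and Ldha (-2.10 ± 0.12), which muscle expresses strongly, lower. Mean Car9 was 52.8 CPM in uncured and 4.06 CPM in cured mice, beside 488.5 and 2.165 CPM for Epcam of the gastric epithelium list. The part of epithelium in Car9 was not tested.

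In the same comparison, 13 of 14 tested gastric epithelium genes, 6 of 6 neutrophil genes, 8 of 8 macrophage genes and 5 of 6 T cell genes were higher in uncured mice, and 18 of 18 muscle genes and 10 of 11 adipocyte genes were lower. Among mesothelial genes 2 of 6 were higher, 3 of 6 fibroblast genes were higher and 2 lower, and 1 of 4 platelet genes was higher. By library totals 3 mesothelial and 4 fibroblast genes were higher and none lower, and 9 adipocyte genes were lower and 1 higher. The summed level of macrophage genes was 772 to 854 CPM in cured and 1326 and 1501 CPM in uncured mice. The part of these cell types in the levels of Vegfa, which many cell types make, was not tested. Nor was their part in the levels of the listed genes.

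Between cured and untreated mice, 18% of all genes were called higher and 26.7% lower with TMM. With library totals 7.51% of all genes were called higher and 46.7% lower. The pan-endothelial list had 3 genes higher and 1 lower of 21 with TMM, and 1 higher and 3 lower with library totals. Whether these shares differ from those of all genes was not tested. Cd34 was higher (1.10 ± 0.18, adjusted p = 0.00143) and Ecscr lower (-1.18 ± 0.23, adjusted p = 0.00314) under both. Mural genes were higher for 4 of 10 with TMM, and higher for 2 and lower for 1 with library totals, among them Abcc9 (1.42 ± 0.44) and Rgs5 (1.27 ± 0.34). Tip cell and sprouting genes were higher for 2 and lower for 4 of 13 with TMM, and lower for 7 with library totals, with Kcne3 (-3.73 ± 0.56) and Unc5b (-1.54 ± 0.29) lower under both. Notch genes were higher for 1 and lower for 3 of 8, lymphatic genes higher for 2 and lower for 2 of 5, hypoxia genes higher for 6 and lower for 4 of 15, and inhibitors higher for 1 and lower for 3 of 9 with TMM, among them Thbs1 (-2.35 ± 0.42). With library totals none of the Notch, lymphatic and inhibitor genes was higher and 4, 2 and 5 were lower, and 3 hypoxia genes were higher and 5 lower. Beside these, 15 of 15 tested gastric epithelium genes and 6 of 6 neutrophil genes were lower in cured mice and 6 of 18 muscle genes were higher. The part of these cell types in the levels of the listed genes was not tested. Vegfb was 1.41 ± 0.36 higher on the log2 scale (adjusted p = 0.0117) and Vegfc fell by 0.77 (adjusted p = 0.0198). In untreated mice from day 21 to day 35, where 4.58% of all genes were called lower with TMM and 3.27% with library totals, 5 of 13 tip cell and sprouting genes were lower and none higher with TMM, and 1 was lower with library totals. They included the basement membrane genes Lama4 (-0.94 ± 0.14, adjusted p = 0.0062) and Col4a1 (-0.75 ± 0.14, adjusted p = 0.00968). In the same comparison 4 of 6 fibroblast genes were lower with TMM and 1 with library totals, among them Col3a1 (-1.27 ± 0.28, adjusted p = 0.0187). With TMM, where 973 of 15604 genes were called higher, 2 of 15 tested gastric epithelium genes were higher (Tff2 3.32 ± 0.53, Muc1 1.20 ± 0.33). So were 2 of 5 neutrophil genes (S100a8 2.08 ± 0.40, S100a9 1.53 ± 0.40). Of 18 muscle genes 1 was lower (Myh2 -2.08 ± 0.27), as was 1 of 11 adipocyte genes (Plin1 -1.33 ± 0.30). The part of fibroblast content and of these other cell types was not tested. With dual ICI on day 21, where 0.574% of all genes were called, 0 of the 21 pan-endothelial, 13 tip cell and 10 mural genes were called, with medians of -0.10, -0.21 and -0.18 beside 0.024 for all genes, while 3 of 6 T cell genes were higher (Cd8a 2.31 ± 0.35, adjusted p = 0.0193).

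Some of the 9 genes varied together from mouse to mouse. Over the deviations of the 29 libraries from their group means (log2 CPM), Spearman's rho was 0.904 between Pecam1 and Cdh5, 0.903 between Pecam1 and Tek, 0.822 between Cdh5 and Tek and 0.79 between Vegfa and Cdh5. Angpt2 and Esm1 stood apart from these, with rho of -0.073 between Angpt2 and Tek and -0.029 between Esm1 and Cdh5. Kdr and Flt1, the VEGF receptors, had a rho of 0.077. The libraries share scaling and tissue composition, so these values are descriptions. Among 14329 other genes with a mean of at least 1 CPM, those most like Tek were Ebf1 (0.922), Akap12 (0.91) and Opcml (0.902), those most like Cdh5 were Dlc1 (0.927), Ank2 (0.921) and Mpdz (0.901), and those most like Pecam1 were Cxcl12 (0.896), S1pr1 (0.89) and Ccl11 (0.889). Vegfa was most like Sh3bp5 (0.906), Ppp2r5a (0.901) and Mut (0.901), and Flt1 most like Ppara (0.876), 3110057O12Rik (0.818) and Cpox (0.771). The nearest genes had lower rho for Kdr (Zfp235 at 0.793, Prickle2 at 0.746, Fam184a at 0.73), Pgf (Ndufaf2 at 0.765, Mecr and Mrap at 0.7), Esm1 (Slc5a3 at 0.742, Rgs19 at 0.674, Tmem45a at 0.662) and Angpt2 (Fcgr1 at 0.706, Scfd1 at 0.686).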

How the data were processed

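Bulk RNA of 29 mouse peritoneum samples was measured on paired-end libraries (NEBNext Ultra II). The authors deposited 1 table of whole read counts per gene symbol, and its values were used as deposited. The build was mm10. The submitters' processing notes name STAR 2.7.0f and featureCounts 1.6.4, while the study's methods name STAR 2.5.2b and HTSeq 0.6.1. The strand setting is not given in the sources used here. Library totals ran from 25989217 to 31219650, so counting error is small except for Pgf and Esm1, whose lowest counts were 29 and 4.

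The 9 genes, the gene lists and the tests were chosen with earlier results of these data known. Each comparison was fitted with edgeR 4.0.16 (R 4.3.3) on the 2 groups compared: filterByExpr, TMM scaling, glmQLFit and glmQLFTest, with p-values adjusted by Benjamini and Hochberg's method across every gene in the fit, and a threshold of 0.05. Standard errors are the log2 fold change over the square root of F. Levels are CPM on TMM-scaled totals of all 29 libraries, and log2 CPM used a prior count of 2. Ratios were tested by exact two-sided permutation, taking 2 times the smaller tail as scipy 1.17.1 does. Besides the 9 genes, each list names up to 4 called genes with the largest change, or up to 2 of the highest level where none was called, and each of the 9 genes has the 3 most like it, of which 1 is not reported here.

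Alternatives were DESeq2 1.42.0, upper-quartile scaling, no filter, at least 10 counts in every library, no muscle genes, all 29 libraries in 1 fit, a replicate block, each library left out, a prior count of 0.5 for ratios and, chosen after seeing the data, library totals without TMM factors. Separate mice make up each group, and whether the libraries were made in batches was not tested.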

Additional observations from a re-analysis of the deposited data

Results flagged for a closer look

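Among 45 combinations of a gene and a group of 4 or 5 libraries, 6 held 1 library far from the others on TMM-scaled CPM, its gap to the nearest taking up most of the group's range, and chance gives about 1 in 20. In untreated mice of day 35, replicate 2 had Vegfa at 205 CPM, where the other 4 libraries lay between 109 and 137 CPM, and Tek at 40.9 CPM, where the others lay between 19.3 and 25.0 CPM. By library totals its Vegfa was 162 CPM, inside the range of the others (103 to 164 CPM), and its Tek was 32.3 CPM beside 21.8 to 29.5 CPM. In anti-PD1 mice, replicate 5 had Vegfa at 324.5 CPM, where the others lay between 118 and 176 CPM, and by library totals it had 224 CPM beside 139 to 195 CPM. These are the 2 libraries low in gastric epithelium and high in muscle genes, of which only anti-PD1 replicate 5 lay within the range of the cured libraries for gastric epithelium. Tek was at 90.0 CPM in untreated replicate 2 of day 21, beside 37.7 to 47.7 CPM in the others, and at 84.3 beside 39.2 to 45.8 CPM by library totals. Esm1 was at 2.83 CPM in untreated replicate 4 of day 21, beside 1.04 to 1.39 CPM. Pgf was at 3.74 CPM in untreated replicate 4 of day 35, beside 1.38 to 1.94 CPM. The causes were not tested.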

How the results depend on the processing

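Across 12 to 18 alternatives per gene, Tek was called lower in uncured than in cured mice in 12 of 12 and higher in cured than in untreated mice in 16 of 16, and Flt1 was called in 12 of 12 between uncured and cured mice. Where an uncured library was left out, that arm held 1 mouse, which was assumed to vary like the cured mice. Cdh5 in cured against untreated mice was lost in 8 of 16 (adjusted p from 0.000223 to 0.331), and Angpt2 in uncured against cured mice in 4 of 12. In untreated mice over time, adjusted p ran from 0.0011 to 0.0696 for Vegfa and from 0.00591 to 0.101 for Tek. With all 29 libraries in 1 fit, Pecam1 between uncured and cured mice had an adjusted p of 0.0819. The causes of these changes were not tested. Depth limits Pgf and Esm1, and 2 uncured mice limit every comparison with them.

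DESeq2 called 507 genes for dual ICI on day 21, 3141 for untreated mice over time, 18 for uncured and 56 for all dual ICI against untreated mice, and 1 for the interaction. Library totals gave 15 genes for dual ICI on day 21, and 1 of the 9 genes for cured against untreated mice, where Kdr (-0.17) and Pecam1 (-0.35) reversed. They also reversed Vegfa (0.17), Pecam1 (0.00198) and Cdh5 (0.12) in uncured against untreated mice, and Pgf (0.55) and Pecam1 (0.35) in uncured against cured mice.

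Replicate numbers were not taken to pair the mice. Same-numbered deviations correlated from -0.346 to 0.658 on day 21, from -0.733 to 0.465 with anti-PD1 and from -0.0854 to 0.725 with anti-CTLA4. No comparison had every pair above 0.1. Libraries also differ in tissue composition, so these values cannot decide whether the mice were paired. With the replicate number as a block, 209 genes were called for dual ICI on day 21. For cured against untreated mice 4016 genes and 1 of the 9 genes were called, and Vegfa (0.036), Flt1 (0.15) and Cdh5 (0.10) reversed in uncured against untreated mice. Uncured and cured mice share no number, so no paired fit was made for them.

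With single libraries left out, genes called ranged from 6 to 119 for dual ICI on day 21, from 654 to 4915 for untreated mice over time and from 4491 to 9388 for cured against untreated mice. The 9 genes gave 0 to 5 calls over time and 2 to 5 for cured against untreated mice, the highest in both without untreated replicate 2 of day 35. Single fold changes were recomputed for 5 of the 9 genes with anti-PD1, 3 with anti-CTLA4, 2 with all dual ICI mice and 2 for the interaction, and for all 9 in the other comparisons. Among these, log2 fold changes crossed 0 on day 21 for Pgf (-0.042 to 0.19) and Pecam1 (-0.093 to 0.031), over time for Esm1 (-0.35 to 0.080), with anti-PD1 for Tek (-0.045 to 0.57) and Cdh5 (-0.10 to 0.45), in uncured against untreated mice for Vegfa (-0.22 to 0.11), Pgf (-0.37 to 0.060), Cdh5 (-0.25 to 0.12) and Esm1 (-0.12 to 0.30), and in cured against untreated mice for Pgf (-0.18 to 0.34). The log2 ratio of Angpt2 to Tek crossed 0 on day 21 (-0.013 to 0.40), with anti-PD1 (-0.50 to 0.055) and with anti-CTLA4 (-0.14 to 0.24). That of Flt1 to Kdr did so on day 21 (-0.20 to 0.059), over time (-0.24 to 0.13), with anti-PD1 (-0.0039 to 0.36) and in uncured mice (-0.051 to 0.32), and that of Pgf to Vegfa with anti-CTLA4 (-0.52 to 0.055) and in uncured mice (-0.38 to 0.19).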
